A study of Mus musculus with 12 samples.

Results

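Drug transporters at the plasma membrane decide in part how much imatinib, the inhibitor of the BCR-ABL1 kinase, stays inside a cell, and the RNA of 8 genes for such transporters was examined in leukemic stem and progenitor cells of CML mice. The genes were chosen by name from the 46103 genes of the deposited files and comprised 6 efflux genes of the ATP-binding cassette (ABC) family (Abcb1a, Abcb1b, Abcg2, Abcc1, Abcc4 and Abcc5) and 2 uptake genes of the SLC22 family (Slc22a4 and Slc22a5). All 8 genes were above 0 in all 12 libraries, and none was listed in numbered copies. RNA levels are given as RPKM, reads per kilobase of transcript scaled by the total reads of the library. The filter for the tests across genes, at least 1 RPKM in at least 3 libraries, was passed by 10072 genes and by 7 of the 8 transporter genes, with Abcb1a below it.

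The libraries came from C57BL/6 mice with a CML-like disease. Bone marrow cells of fluorouracil-treated G0M donors had been transduced with a retrovirus carrying human BCR-ABL1 and transplanted into lethally irradiated recipients, so every group carried the oncogene and the G0 marker. G0M is a fluorescent fusion with a p27 mutant that accumulates in resting cells, placed in the Rosa26 locus and switched on in blood cells by Vav1-Cre. From the LSK fraction (lineage markers absent, Sca1 and c-Kit present), DP cells (BCR-ABL1+ CD27+ G0M+) and SP cells (BCR-ABL1+ CD27+ G0M-) were sorted from vehicle-treated mice. The corresponding populations of mice given imatinib by gavage once a day, at 40 mg/kg from day 10 after transplantation, are called IMDP and IMSP cells. Each group held 3 libraries, each made from 100 sorted cells of bone marrow and spleen. Nothing in the labels says that the libraries of a group came from separate mice, so the p values measure the spread between these libraries, which may be technical.

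P-glycoprotein, which mice encode in the neighbouring genes Abcb1a and Abcb1b, and the breast cancer resistance protein encoded by Abcg2 use ATP to pump many drugs, imatinib among them, out of cells. Abcg2 is also known for the dye efflux by which the side population of hematopoietic stem cells is recognised. Abcc1, Abcc4 and Abcc5 encode multidrug resistance-associated proteins, which export organic anions such as glutathione conjugates (Abcc1) and cyclic nucleotides and nucleotide analogs (Abcc4 and Abcc5). Slc22a4 encodes OCTN1, a carrier of ergothioneine and organic cations, and Slc22a5 encodes OCTN2, the high-affinity carrier of carnitine.

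The populations were first checked on marker genes. The gate genes Kit, Ly6a and Cd27 were above 0 in all groups, with a summed level of 33.4 to 78.9 RPKM per library. The summed level of 7 proliferation genes (Mki67, Top2a and others) was 21.2 to 82.2 RPKM in the 6 G0M+ libraries and 213 to 290 RPKM in the 6 G0M- libraries, without overlap. Genes of other blood cells varied between libraries of a group. The summed level of 9 mast cell and basophil genes reached 329 RPKM in a DP library against 76.3 RPKM in another, and that of 10 erythroid genes ran from 26.0 RPKM in IMSP to 497 RPKM in IMDP libraries. Of the 7 macrophage genes, C1qa, C1qb and C1qc were at 0 in SP and IMSP cells, and Marco was at 0 in all groups. In bulk RNA, fewer cells of a type and less RNA per cell cannot be told apart. Of the reads that stood behind the RPKM of a library, between 11367631 and 20573779, 25.9% to 37.1% fell on the listed features, and 1 read on a transcript of 1 kb was worth 0.0486 to 0.0880 RPKM.

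The 8 genes spanned a wide range of levels. Abcc1 was the highest, with a mean of 14.0 RPKM over the 12 libraries, and its lowest library lay above the highest library of every other gene. Abcc4 (5.25 RPKM), Abcg2 (4.26 RPKM), Slc22a5 (3.68 RPKM) and Abcb1b (3.51 RPKM) followed, and each overlapped the next in its library values. Below them stood Abcc5 (2.00 RPKM), Slc22a4 (0.892 RPKM) and Abcb1a (0.327 RPKM). The order of the genes below Abcc1 differed between groups. In DP cells all Abcb1b libraries lay below all Slc22a5 libraries, whereas in IMDP and IMSP cells the mean of Abcb1b was above that of Slc22a5.

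**Figure D1:**
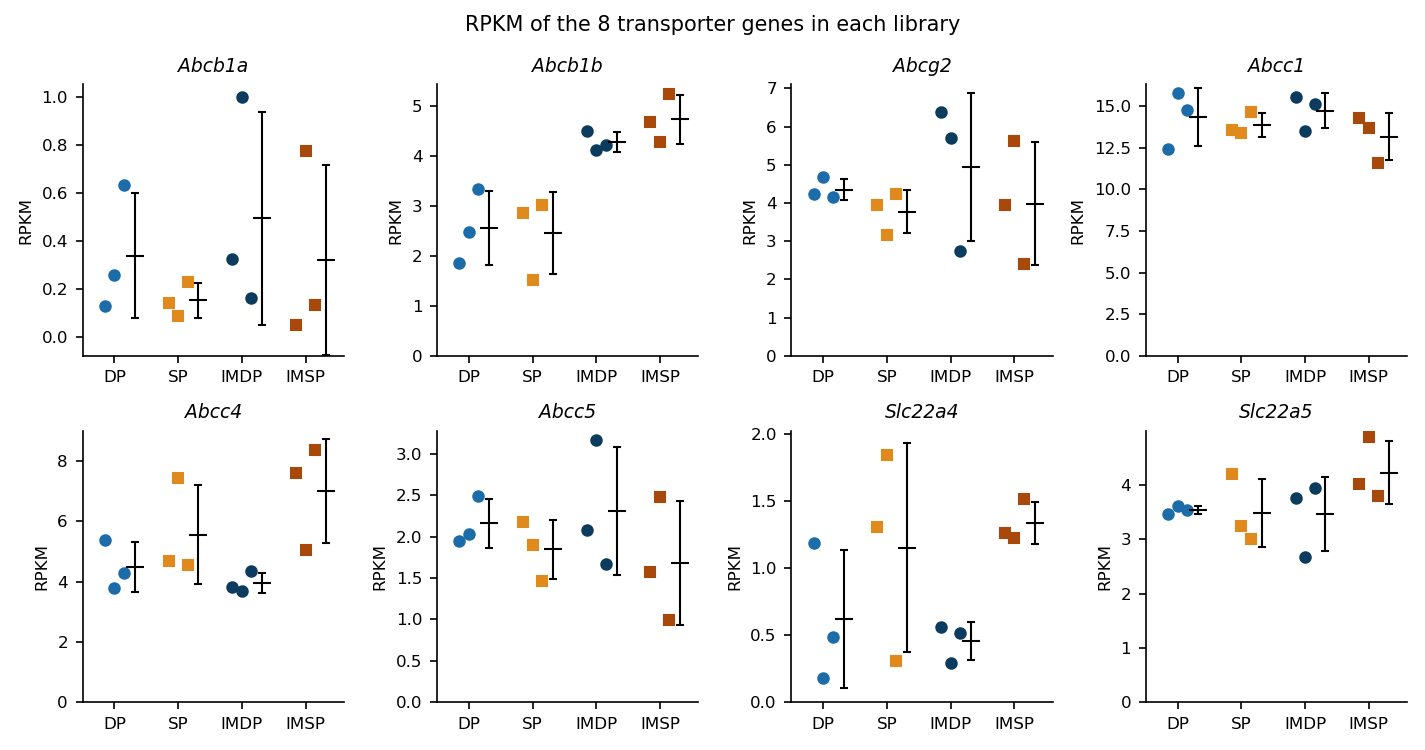
RPKM of the 8 transporter genes (y axis, RPKM, one panel per gene) in DP, SP, IMDP and IMSP libraries (x axis). Points are libraries, the black dash and bar are the mean and SD of 3 libraries. The 6 imatinib libraries of Abcb1b, at 4.12 to 5.24 RPKM, lay above the 6 vehicle libraries, at 1.52 to 3.33 RPKM.

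Each of the 7 genes that passed the filter was compared between populations and between treatments with limma on log2(RPKM + 0.1), with p values adjusted over all 10072 genes by the Benjamini-Hochberg method and a threshold of 0.05. Only Abcc4 passed, and only between populations. It was the 1 gene of 7 called in IMDP over IMSP cells, where 25.6% of all genes were called, and the 1 gene of 7 called in G0M+ against G0M- cells averaged over treatments, where 26.3% of all genes were called. In DP over SP cells, 0 of 7 genes were called by limma, against 2.26% of all genes. An unadjusted p under 0.05 was reached there by 0 of 7 genes, against 1328 of all 10072 genes. These shares are the background against which the counts of transporter genes are read, and neither count of 1 in 7 stood above its background.

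Between treatments limma called 0 of the 7 genes in each comparison. In IMDP against DP cells 0.367% of all genes were called. An unadjusted p under 0.05 was reached there by 2061 of the 10072 genes, with 1 transporter gene among them. For imatinib against vehicle averaged over populations 0.854% of all genes were called, with 1811 at an unadjusted p under 0.05 and 1 transporter gene among them. In IMSP against SP cells 0.0% of all genes were called, with 845 at an unadjusted p under 0.05 and 1 transporter gene among them. That gene was Abcb1b each time. The interaction of population and treatment gave 0.0% of all genes called, with 937 at an unadjusted p under 0.05, and 0 of the 7 transporter genes reached either. By limma-voom on reads recovered from the RPKM, 1 transporter gene was called in imatinib against vehicle and 0 in the pairwise treatment comparisons.

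Libraries without overlap between groups were counted as well. In DP over SP cells 0 of 7 genes were free of overlap (22.4% of all genes). In IMDP over IMSP cells Abcc4 and Slc22a4, 2 of 7, were free of overlap (39.0% of all genes), both lower in IMDP cells. Over both treatments 0 of 7 separated the 6 G0M+ from the 6 G0M- libraries (8.21% of all genes). Between treatments Abcb1b was the 1 gene of 7 without overlap, in IMDP against DP cells (23.6% of all genes), in IMSP against SP cells (13.8% of all genes) and over the 6 imatinib and 6 vehicle libraries (1.12% of all genes).

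**Figure D2:**
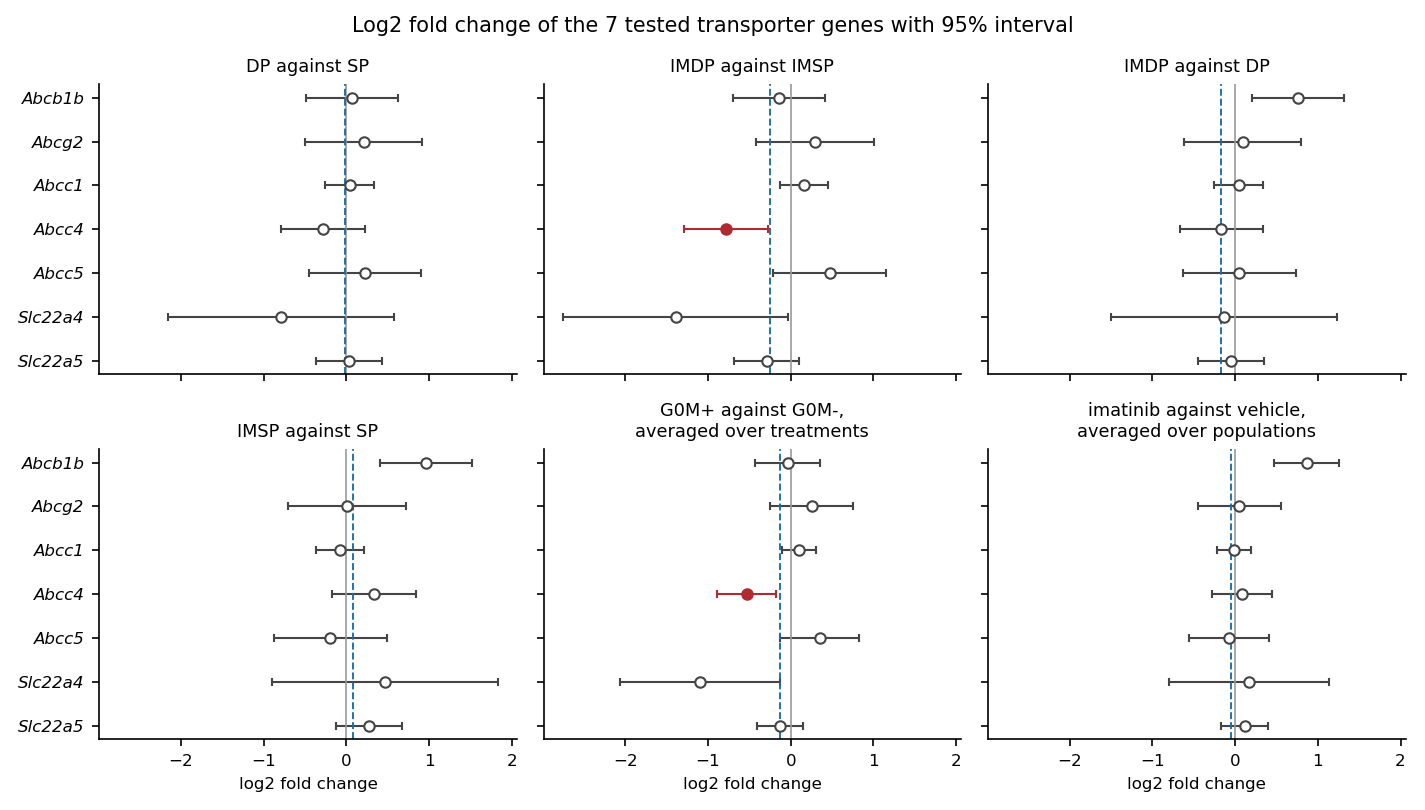
Log2 fold change (x axis) of the 7 tested transporter genes (y axis) in 6 comparisons, with the 95% interval from limma. Filled points passed the adjusted p threshold, the grey line marks 0 and the dashed blue line the median of all 10072 genes. Abcc4 passed at -0.78 in IMDP over IMSP cells and at -0.53 in G0M+ against G0M- cells.

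Among the efflux genes, Abcb1b was the gene whose libraries separated by treatment. Abcb1b lies on chromosome 5 (GRCm38, chr5:8798147-8866315, plus strand). Its level was 1.85, 2.47 and 3.33 RPKM in the DP libraries and 2.86, 1.52 and 3.01 RPKM in the SP libraries. With imatinib it was 4.49, 4.12 and 4.21 RPKM in the IMDP libraries and 4.68, 4.27 and 5.24 RPKM in the IMSP libraries. All 6 imatinib libraries stood above all 6 vehicle libraries, and DP overlapped SP. The values rested on 112 to 357 reads per library.

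The mean of Abcb1b was 4.27 ± 0.195 RPKM in IMDP (SD, n = 3) against 2.55 ± 0.742 RPKM in DP cells, and 4.73 ± 0.486 RPKM in IMSP against 2.46 ± 0.821 RPKM in SP cells. Over both populations imatinib libraries were higher by a log2 fold change of 0.86 (SE 0.18, 95% interval 0.47 to 1.26), a 1.82-fold higher level, with a limma adjusted p of 0.0513 that missed the threshold. An exact two-sided permutation test over the 12 libraries gave p = 0.00216, the smallest value that 924 arrangements of 6 against 6 libraries can give. Groups without overlap always give this value, so it restates the separation and adds no evidence to it. It was not adjusted for the number of genes. The arrangements also treat all libraries as exchangeable, although those with neighbouring library numbers, which share a treatment, deviated together across genes. Within populations the log2 fold change was 0.76 in IMDP against DP (limma adjusted p = 0.143) and 0.97 in IMSP against SP cells (limma adjusted p = 0.411), and the difference between these changes was -0.21 (SE 0.36, limma adjusted p = 0.869). The averaged value passed the threshold under some settings. It passed with a pseudocount of 1 (adjusted p = 0.0415), with each library scaled to the same median (0.0487), with limma-voom on recovered reads (0.0431), with the reads on listed features as denominator (0.0470), without DP replicate 3 (0.0395) and without SP replicate 2 (0.0464). The imatinib libraries carry the library numbers 1 to 6 and the vehicle libraries the numbers 7 to 12, so the treatment and the order of the numbers cannot be told apart.

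Between populations Abcb1b gave intervals that included 0. The log2 fold change was 0.07 in DP over SP cells (95% interval -0.49 to 0.63) and -0.14 in IMDP over IMSP cells (95% interval -0.70 to 0.42), where the sign turned with each library scaled to the same median (0.13) and with the reads on listed features as denominator (0.18). Summed levels of 8 lymphoid genes were 25.7 to 82.0 RPKM in IMDP and 60.3 to 165 RPKM in IMSP cells. They were 82.5 to 172 RPKM in DP and 91.5 to 265 RPKM in SP cells. Ighm was at 0 in all groups, Cd3e was also at 0 in DP and SP cells, and Il7r was also at 0 in SP cells. The correlation of the sum with Abcb1b over 12 libraries was -0.66. Whether the sum stands for lymphoid cells, and their part in the Abcb1b levels, was not tested.

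The sequence before the Abcb1b start is printed since this was the gene separated by treatment. Here and for the genes below, the 250 bases before the RefSeq start (GRCm38.p6) are given on the strand of the gene, in lower case, with capitals for matches to 3 short motifs on either strand. The first motif was CCAAT, which reads ATTGG on the other strand. The second was GGGCGG, known as a GC box, which reads CCGCCC on the other strand. The third was CACGTG, known as an E-box, which reads the same on both strands. Matches of one motif did not overlap those of another in the windows printed. Abcb1b lay on the plus strand at chr5:8797897-8798146.
Abcb1b: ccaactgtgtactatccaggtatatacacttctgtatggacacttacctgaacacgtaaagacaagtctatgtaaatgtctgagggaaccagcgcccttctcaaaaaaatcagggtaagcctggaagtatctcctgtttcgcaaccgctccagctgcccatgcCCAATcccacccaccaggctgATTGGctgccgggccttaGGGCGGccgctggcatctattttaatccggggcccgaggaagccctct
The window held CCAAT letters starting at -87 and -66 and GGGCGG at -48 from the start. Of 32851 such windows in the RefSeq table, 33.9% held CCAAT and 32.7% held GGGCGG, so the letters were common, and a match is a description and not a site.

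Abcb1a, the other P-glycoprotein gene, lies 49571 bases before Abcb1b (chr5:8660077-8748575, plus strand) and was the lowest of the 8 genes. It was at 0.129, 0.258 and 0.631 RPKM in the DP libraries and at 0.142, 0.0864 and 0.231 RPKM in the SP libraries. In the IMDP libraries it was at 0.326, 0.997 and 0.162 RPKM, and in the IMSP libraries at 0.0521, 0.773 and 0.136 RPKM. All groups overlapped, and IMDP replicate 2 and IMSP replicate 2 stood above every other library. The values rested on 5 to 81 reads per library.

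By exact two-sided permutation of mean log2(RPKM + 0.1), Abcb1a did not differ past the threshold between 6 G0M+ and 6 G0M- libraries (difference 0.66, p = 0.214) or between 6 imatinib and 6 vehicle libraries (difference 0.35, p = 0.532). This permutation left out the pairing of libraries by neighbouring library numbers. In each such pair the G0M+ library was higher in Abcb1a, and a test by these pairs was not run. Within pairs of groups, where 3 against 3 libraries cannot go below p = 0.1, the exact permutation p ran from 0.3 to 0.9. Without IMSP replicate 2 the exact p between populations was 0.0433. Among the imatinib libraries, those highest in Abcb1a were also highest in megakaryocyte genes. The summed level of 7 such genes (Pf4, Vwf, Itga2b and others) was 98.0 RPKM in IMDP replicate 2 and 44.8 RPKM in IMSP replicate 2, against 6.91 to 16.3 RPKM in the other imatinib libraries, with Gp6 at 0 in IMSP cells. Its correlation with Abcb1a was 0.54 over the 12 libraries. Over the 6 imatinib libraries it was 0.92, and over the 6 vehicle libraries, where DP replicate 1 had the highest marker level at 126 RPKM, it was 0.10. Over the 12 libraries Abcb1a ran opposite to the lymphoid genes (-0.73) and to the neutrophil and monocyte genes (-0.71). The part of any of these cells in the Abcb1a level was not tested.

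Of the summed RPKM of both P-glycoprotein genes, Abcb1a made up 1.10% to 19.5% per library. The sum itself was 1.61 to 3.96 RPKM in vehicle and 4.38 to 5.38 RPKM in imatinib libraries, without overlap. Reads on the stretches that both genes share could be assigned to either. In the longest GENCODE M21 transcripts, 15.5% of the 4948 windows of 50 bases of Abcb1a also stood in Abcb1b, and the longest identical run was 338 bases, so the split of reads between both genes was uncertain.

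**Figure D3:**
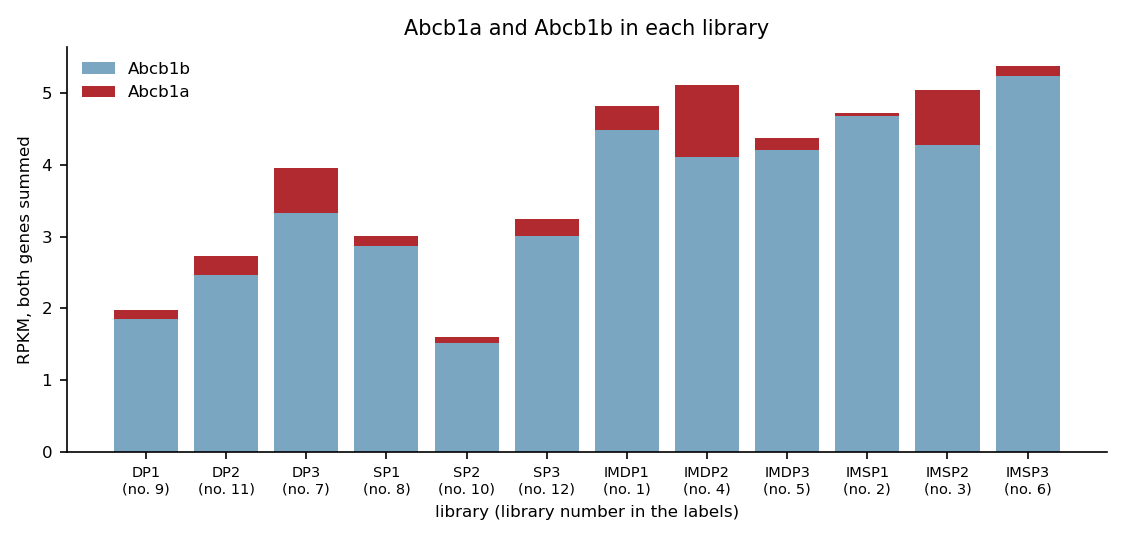
RPKM of Abcb1b and Abcb1a stacked (y axis, bars from 0) in each library (x axis, with the library number in the labels). The sum was 1.61 to 3.96 RPKM in the 6 vehicle libraries and 4.38 to 5.38 RPKM in the 6 imatinib libraries, and the Abcb1a segment was largest in IMDP2 and IMSP2.

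Abcg2, the gene of the breast cancer resistance protein (chr6:58584523-58695676, plus strand), varied more between imatinib libraries than between groups. Its level was 4.23, 4.67 and 4.15 RPKM in the DP libraries and 3.94, 3.16 and 4.23 RPKM in the SP libraries. It was 6.38, 5.70 and 2.74 RPKM in the IMDP libraries and 3.95, 5.62 and 2.39 RPKM in the IMSP libraries. The groups overlapped in every comparison, and in both imatinib populations replicate 3 was the lowest library. The log2 fold change was 0.21 in DP over SP cells (95% interval -0.50 to 0.92, limma adjusted p = 0.796) and 0.30 in IMDP over IMSP cells (95% interval -0.41 to 1.00, limma adjusted p = 0.526). For imatinib against vehicle it was 0.05, with a 95% interval of -0.45 to 0.55 (limma adjusted p = 0.930). The correlation of Abcg2 with the summed erythroid genes over 12 libraries was 0.70, and the part of these cells in its level was not tested.

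Abcc1, which exports glutathione conjugates (chr16:14361558-14475737, plus strand), was the most even of the 8 genes. It was at 12.4, 15.8 and 14.8 RPKM in the DP libraries and at 13.5, 13.4 and 14.7 RPKM in the SP libraries. It was at 15.5, 13.5 and 15.1 RPKM in the IMDP libraries and at 14.3, 13.7 and 11.6 RPKM in the IMSP libraries. All groups overlapped, and 929 to 1666 reads stood behind each value. In IMDP over IMSP cells the log2 fold change was 0.16 (SE 0.13, limma adjusted p = 0.390). The median of all genes in that comparison was -0.25, and with each library scaled to the same median Abcc1 was higher in IMDP cells by 0.44 (limma adjusted p = 0.0424). With the reads on listed features as denominator it also passed, at 0.49 (limma adjusted p = 0.0259), and so did the change averaged over treatments, at 0.29 (limma adjusted p = 0.0360). For imatinib against vehicle the change was -0.02 (95% interval -0.22 to 0.19), and its sign turned under both scalings.

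Abcc4, an exporter of cyclic nucleotides and nucleotide analogs (chr14:118482692-118706219, minus strand), was lower in IMDP than in IMSP cells. Its level was 3.83, 3.69 and 4.35 RPKM in the IMDP libraries and 7.59, 5.06 and 8.37 RPKM in the IMSP libraries. In the vehicle groups it was 5.39, 3.77 and 4.29 RPKM in the DP libraries and 4.70, 7.44 and 4.54 RPKM in the SP libraries. IMDP lay below IMSP in every library, whereas DP and SP overlapped. The mean was 3.96 ± 0.347 RPKM in IMDP (SD, n = 3) and 7.00 ± 1.73 RPKM in IMSP cells.

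The log2 fold change of Abcc4 in IMDP over IMSP cells was -0.78 (SE 0.23, 95% interval -1.29 to -0.27, limma adjusted p = 0.0300), a 1.72-fold lower level, or -0.53 once the median of all genes was subtracted. Averaged over treatments, Abcc4 was lower in G0M+ cells by a log2 fold change of -0.53 (SE 0.16, limma adjusted p = 0.0339), or -0.40 once that median, here -0.13, was subtracted. In DP over SP cells it was -0.28 (95% interval -0.79 to 0.22, limma adjusted p = 0.613), and the difference between both populations' changes was -0.50 (limma adjusted p = 0.612), which does not show that the changes differ. With imatinib the log2 fold change was -0.16 in DP (limma adjusted p = 0.726) and 0.33 in SP cells (limma adjusted p = 0.735).

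The Abcc4 calls changed with the scaling and with the library left out. With each library scaled to the same median the log2 fold change was -0.51 in IMDP over IMSP (limma adjusted p = 0.163) and -0.37 averaged over treatments (0.127), and with the reads on listed features as denominator it was -0.46 (0.184) and -0.35 (0.139). The adjusted p in IMDP over IMSP cells was 0.0562, 0.0950 and 0.0544 without IMDP replicates 1, 2 and 3, and 0.112 and 0.0922 without IMSP replicates 1 and 3. The log2 fold change in these fits was -0.85 to -0.64. Averaged over treatments it was 0.0509 to 0.0830 without DP replicate 2 or 3, SP replicate 2, IMDP replicate 1 or 2, or IMSP replicate 1 or 3. The direction stayed negative in all of these. With neighbouring library numbers as a block, which pair libraries of both populations, both calls held (limma adjusted p = 0.00249 and 0.00270).

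Abcc5, a related exporter of cyclic nucleotides (chr16:20331303-20426394, minus strand), overlapped between all groups. It was at 1.95, 2.03 and 2.49 RPKM in the DP libraries and at 2.17, 1.90 and 1.46 RPKM in the SP libraries. It was at 2.08, 3.16 and 1.67 RPKM in the IMDP libraries and at 1.57, 2.48 and 0.997 RPKM in the IMSP libraries. As with Abcb1a and the megakaryocyte genes, replicate 2 was the highest library in both imatinib populations. The log2 fold change was 0.47 in IMDP over IMSP cells (95% interval -0.21 to 1.15, limma adjusted p = 0.279) and 0.35 averaged over treatments (95% interval -0.13 to 0.83, limma adjusted p = 0.252). With neighbouring library numbers as a block, which pair libraries of both populations, both passed, at limma adjusted p = 0.0452 and 0.0368. Its correlation with the summed megakaryocyte genes over 12 libraries was 0.70, and the part of these cells in its level was not tested.

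Of the uptake genes, Slc22a4 was low and varied most between libraries. Slc22a4, the OCTN1 gene (chr11:53983123-54028090, minus strand), was at 1.19, 0.182 and 0.489 RPKM in the DP libraries and at 1.31, 1.84 and 0.307 RPKM in the SP libraries. It was at 0.560, 0.295 and 0.519 RPKM in the IMDP libraries and at 1.26, 1.23 and 1.51 RPKM in the IMSP libraries. IMDP lay below IMSP in every library, and DP and SP overlapped. The values rested on 11 to 121 reads per library.

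The mean of Slc22a4 was 0.458 ± 0.143 RPKM in IMDP (SD, n = 3) and 1.34 ± 0.156 RPKM in IMSP cells, and 0.620 ± 0.516 RPKM in DP and 1.15 ± 0.780 RPKM in SP cells. The log2 fold change was -1.39 in IMDP over IMSP (SE 0.63, 95% interval -2.76 to -0.03), with a limma adjusted p of 0.120 that missed the threshold. Averaged over treatments it was -1.09 (SE 0.44, limma adjusted p = 0.0843), and in DP over SP cells -0.79 (limma adjusted p = 0.599). It passed in IMDP over IMSP cells when only these groups entered the fit (limma adjusted p = 0.0460) and with the library numbers as a block (0.00561). Averaged over treatments it passed with that block (0.00315), without DP replicate 1 (-1.37, 0.0335) and without SP replicate 3 (-1.43, 0.0216). With imatinib the log2 fold change was -0.13 in DP (95% interval -1.50 to 1.23) and 0.46 in SP cells (95% interval -0.90 to 1.83).

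Slc22a5, the carnitine carrier gene beside Slc22a4 (chr11:53864542-53891660, minus strand, with 91462 bases between both genes), varied less. It was at 3.46, 3.61 and 3.54 RPKM in the DP libraries and at 4.20, 3.25 and 3.01 RPKM in the SP libraries. It was at 3.76, 2.68 and 3.94 RPKM in the IMDP libraries and at 4.01, 4.88 and 3.79 RPKM in the IMSP libraries. The groups overlapped in every comparison made, and DP lay below IMSP, a pair that was not compared. The log2 fold change was 0.03 in DP over SP cells (95% interval -0.36 to 0.43), -0.29 in IMDP over IMSP cells (95% interval -0.69 to 0.10, limma adjusted p = 0.251) and 0.11 for imatinib against vehicle (95% interval -0.17 to 0.39). The sign in IMDP over IMSP cells turned to 0.03 with the reads on listed features as denominator. Slc22a4 and Slc22a5 shared 5 of 2214 windows of 50 bases in their longest transcripts, with a longest identical run of 54 bases.

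Abcc4 and Slc22a4 varied together, with a correlation of log2 levels over the 12 libraries of 0.81. The remaining pairs of the 7 genes ran from -0.68 (Abcc1 with Slc22a4) to 0.73 (Abcg2 with Abcc5). Both genes also ran with 10 neutrophil and monocyte genes (Mpo, Elane, Prtn3, Ctsg and others). The summed level of these genes was 80.8 to 312 RPKM in IMDP and 534 to 2338 RPKM in IMSP libraries, without overlap, and 74.9 to 1494 RPKM in DP and 400.3 to 2739 RPKM in SP libraries, with overlap. All 10 genes were above 0 in DP, SP and IMSP cells and 9 in IMDP cells, where Ly6g was at 0.

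Over 12 libraries the correlation with this sum was 0.88 for Abcc4 and 0.91 for Slc22a4, and for the other 6 genes it ran from -0.71 (Abcb1a) to 0.30 (Slc22a5). It was 0.95 for Abcc4 and 0.97 for Slc22a4 within the 6 G0M+ libraries, and 0.83 and 0.75 within the 6 G0M- libraries. DP replicate 1, at 1494 RPKM of these genes, had the highest Abcc4 and Slc22a4 of the DP libraries, and SP replicate 3, at 400.3 RPKM, had the lowest of the SP libraries. The correlation with the proliferation genes was 0.70 for Abcc4 and 0.69 for Slc22a4 over 12 libraries, but -0.58 and -0.16 within the 6 G0M- libraries. These libraries share their depth and their cells between all genes, and the part of neutrophil and monocyte cells in the Abcc4 and Slc22a4 levels was not tested.

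**Figure D4:**
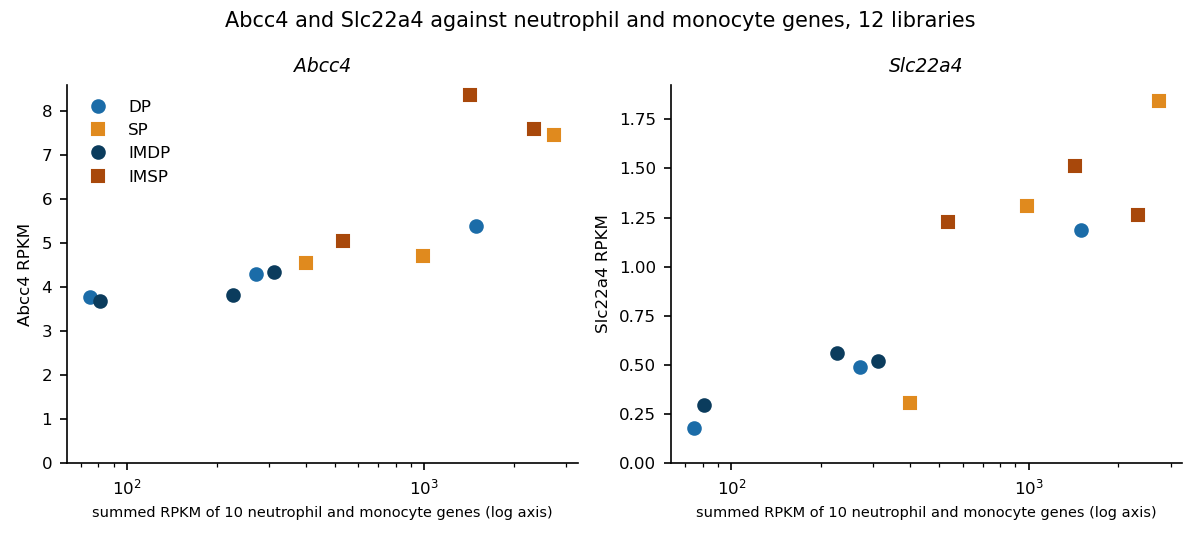
RPKM of Abcc4 and Slc22a4 (y axes, from 0) against the summed RPKM of 10 neutrophil and monocyte genes (x axis, log scale) in the 12 libraries, with colours for the groups. Both genes were higher in libraries with more of these transcripts, with correlations of log2 levels of 0.88 and 0.91.

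The windows before Abcc4 and Slc22a4 are printed since these genes varied together, with that of Slc22a5 as the neighbour that did not. Abcc4 lay at chr14:118706220-118706469, Slc22a4 at chr11:54028105-54028354 and Slc22a5 at chr11:53891704-53891953, all on the minus strand.
Abcc4: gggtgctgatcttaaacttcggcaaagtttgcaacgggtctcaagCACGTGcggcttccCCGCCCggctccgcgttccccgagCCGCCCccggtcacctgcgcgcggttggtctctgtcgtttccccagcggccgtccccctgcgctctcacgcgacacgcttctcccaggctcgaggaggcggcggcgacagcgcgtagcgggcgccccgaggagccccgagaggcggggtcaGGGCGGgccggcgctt
Slc22a4: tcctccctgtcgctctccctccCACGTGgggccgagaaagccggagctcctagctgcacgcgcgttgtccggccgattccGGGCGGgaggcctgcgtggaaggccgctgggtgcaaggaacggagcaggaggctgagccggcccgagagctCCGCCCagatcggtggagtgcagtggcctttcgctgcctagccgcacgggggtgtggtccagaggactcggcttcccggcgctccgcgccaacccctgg
Slc22a5: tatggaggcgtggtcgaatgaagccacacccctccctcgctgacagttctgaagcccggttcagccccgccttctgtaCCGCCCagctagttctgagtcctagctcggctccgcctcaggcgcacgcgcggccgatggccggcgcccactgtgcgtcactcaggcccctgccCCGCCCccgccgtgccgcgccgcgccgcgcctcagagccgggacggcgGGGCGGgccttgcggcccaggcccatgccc
Abcc4 and Slc22a4 both held CACGTG, starting at -205 and -228 from their starts, and Slc22a5 held none in this window. The table holds another start for Abcc4, whose window (chr14:118676932-118677181) held none of the 3 motifs. CACGTG stood in 6.02% of all windows. GGGCGG, held by all of the 3 windows, stood in 32.7% of all windows, and none of the 3 held CCAAT. A window was found for 7 of the 8 genes in the table, and none for Abcc1.

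The genes whose log2 levels were most like those of each transporter over the 12 libraries are named as a description. They were Zfp810 (r = 0.92) and Fam26f (0.90) for Abcb1b, and Prkcdbp (0.94) and Synrg (0.93) for Abcg2. For Abcc1 they were Fbxo6 (0.90) and Dnmt3b (0.87), and for Abcc5 Epb41 (0.92), which encodes a protein of the red cell membrane skeleton, and Neu3 (0.92). For Abcc4 they were Fndc3b (0.95) and Nfam1 (0.95), and for Slc22a4 Stom (0.95) and Mefv (0.95), the gene of pyrin. For Slc22a5 they were Pcbd2 (0.92) and Vrk2 (0.91). The highest correlation among 10072 genes is high by the way it was picked.

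Other drug transporters were counted from lists. Of 13 other efflux genes, 5 (Abcb5, Abcb11, Abcc6, Slc47a1 and Slc47a2) were listed at 0 in all libraries and 3 were tested (Abca2, Abca3 and Mvp). Of these 3, limma called 0 in each of the 7 contrasts, with 2 at an unadjusted p under 0.05 in DP over SP cells and 1 in G0M+ against G0M- cells. Of all 10072 genes, 1328 and 4166 reached an unadjusted p under 0.05 in these comparisons. Of 22 other uptake genes, 7 were listed at 0 in all libraries and 7 were tested. Limma called 0 of these 7 in each comparison, with at most 1 at an unadjusted p under 0.05, which 845 to 4166 of all genes reached. Malat1, an abundant nuclear RNA, was listed at 0 as well, so a listed 0 was not read as absence.

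Below the filter, Abcc3, the gene of another organic anion exporter, was picked after its values were seen. It was the gene of the other efflux and uptake lists whose 6 G0M+ and 6 G0M- libraries did not overlap. Of all genes past the filter, 8.21% were without overlap in that comparison. Abcc3 was at 0.322 to 0.405 RPKM in DP against 0 to 0.125 RPKM in SP libraries, and at 0.476 to 0.879 RPKM in IMDP against 0.0677 to 0.118 RPKM in IMSP libraries. These levels rested on 24 to 66 reads in G0M+ and 0 to 13 reads in G0M- libraries. Slc22a17, also named after its values were seen, was higher in DP than SP and in IMDP than IMSP libraries without overlap. It was at 0.171 to 0.588 against 0.0197 to 0.0975 RPKM and at 0.493 to 0.989 against 0.0744 to 0.265 RPKM, on 1 to 44 reads. Without overlap in these comparisons were 22.4% and 39.0% of all genes past the filter. Named likewise, Slc22a15, Slc22a18, Slc22a23, Abca3 and Mvp were higher in DP than SP libraries without overlap. Abcc10 was higher and Abcc2 lower in IMDP than IMSP libraries without overlap.

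Calls were made among ABC genes that do not pump drugs at the plasma membrane. All 4 genes without membrane domains were tested, and 3 were lower both in IMDP than in IMSP cells and in G0M+ than in G0M- cells averaged over treatments (25.6% and 26.3% of all genes were called in either direction). These were Abcf2 (log2 fold change -0.92 in IMDP over IMSP cells, limma adjusted p = 0.00464), Abcf1 (-0.62, 0.0103) and Abce1 (-0.65, 0.0232), which act in translation and ribosome recycling. The median of the 4 genes was -0.64 against -0.25 for all genes. With each library scaled to the same median, Abcf2 remained past the threshold in IMDP over IMSP cells (limma adjusted p = 0.0282), and Abcf1 (0.0658) and Abce1 (0.103) did not. Over 23 settings, leave-one-out fits included, Abcf2 passed in 23, Abcf1 in 20 and Abce1 in 18. Averaged over treatments and scaled to the same median, Abcf1 kept its call (limma adjusted p = 0.0338), and Abcf2 (0.0740) and Abce1 (0.0599) lost theirs. Over the 22 settings of that comparison Abcf1 passed in 22, Abcf2 in 20 and Abce1 in 16.

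Of the 11 organelle ABC genes, 10 were tested, with a median log2 fold change of -0.35 in IMDP over IMSP cells against -0.25 for all genes. Abcb8 of the mitochondrion was lower in IMDP than in IMSP cells (-0.48, limma adjusted p = 0.0380). Scaled to the same median it lost its call (0.287), and it passed in 13 of 23 settings. Of the 6 sterol ABC genes 3 were tested, and Abcg1, a cholesterol exporter, was higher in G0M+ cells averaged over treatments (0.64, limma adjusted p = 0.0247), and passed in 17 of 22 settings.

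Among 13 genes of imatinib metabolism and transporter regulation, 3 (Cyp3a11, Cyp3a13 and Cyp3a25) were listed at 0 and 5 were tested. Ahr, the receptor of aromatic hydrocarbons that regulates detoxification genes, was higher in DP than in SP cells, at 2.08 ± 0.377 against 0.927 ± 0.204 RPKM (SD, n = 3). Its log2 fold change was 1.09 (limma adjusted p = 0.0268) there and 0.60 averaged over treatments (0.0203), and it passed in 16 of 22 and 19 of 21 settings. In IMDP over IMSP cells Ahr stood at 0.11 (limma adjusted p = 0.748), with 1.69 RPKM in IMDP and 1.54 RPKM in IMSP cells on average, so most of the averaged value came from the vehicle groups. The interaction was -0.98 (limma unadjusted p = 0.0112, adjusted p = 0.534). Of 14 genes of the carnitine shuttle and fatty acid oxidation, which use the substrate of the Slc22a5 carrier, 12 were tested. Of these, 2 were called in IMDP over IMSP cells and 1 averaged over treatments, shares below the 25.6% and 26.3% of all genes called there. Aldh9a1, an enzyme of carnitine synthesis, was lower in IMDP than in IMSP cells (-0.75, limma adjusted p = 0.0124) and averaged over treatments (-0.53, 0.0113), and Hadha, of mitochondrial beta oxidation, was lower in IMDP than in IMSP cells (-0.47, 0.0467). Scaled to the same median, Aldh9a1 (0.0506) and Hadha (0.279) missed the threshold in IMDP over IMSP cells, and Aldh9a1 kept its call averaged over treatments (limma adjusted p = 0.0270). Hadha passed in 7 of 23 settings.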

How the data were processed

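RNA-seq covered 12 libraries of 100 sorted cells, 3 in each of DP, SP, IMDP and IMSP. The authors deposited RPKM per feature and library, mapped to GRCm38 (mm10); the methods name CLC Genomics Workbench, the reporting summary HISAT2 and featureCounts. The methods, the reporting summary and the submitters' processing notes name edgeR, which the methods give as the basis of a normalization and of the statistics. Whether that normalization is part of the deposited RPKM is not stated. The library kit does not mark strand. Of 48737 features, those that were numbered copies of a gene were summed to 46103 genes, and no transporter gene had copies.

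Genes with at least 1 RPKM in 3 libraries (10072) entered limma (version 3.58.1, R 4.3.3) as log2(RPKM + 0.1). The model held a mean for each of 4 groups and a variance trend, and gave 7 contrasts, with Benjamini-Hochberg adjusted p values called at 0.05. Fold changes are on this log2 scale, which understates changes of low genes. Abcb1a, below the filter, was tested by exact permutation. Reads were recovered from the steps of the RPKM: all 17735 features above 0 came out whole within 0.01 reads (100% of them). On simulated reads 99.9% of 2945 features were recovered exactly up to a divisor shared by the libraries. The absolute scale of reads and totals was set from GENCODE transcript lengths, which the simulation did not check. PCR copies are not marked, so reads cover counting error only. In simulated data for the population contrast averaged over treatments, with 10072 genes and 200 changed, 54.5% of genes changed by 1 on the log2 scale and 91.0% of those changed by 2 were called, with 6.84% and 2.67% of calls false.

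Positions and transcripts came from GENCODE M21 (GRCm38) and promoter windows from RefSeq (GRCm38.p6). Figures were made with Python 3.11.15 and matplotlib 3.10.9. The text names all 8 genes, up to 6 called genes of each other list by smallest adjusted p, and for each tested transporter the 2 genes with the highest correlation; genes named outside this rule are marked. Some genes that the rule names are not reported here. The transporter genes and lists were chosen with earlier results of these data known. The alternatives changed the pseudocount (1 or 0.01), the filter (none, or 5 RPKM), the scaling, the block, the groups in the fit, the variance trend, the test (limma-voom on recovered reads) and the library left out. The denominator of reads on listed features was chosen after seeing the data. Replicate numbers from the sample titles were checked as pairs. Same-numbered libraries deviated together in IMDP and IMSP (correlations over genes 0.43, 0.66 and 0.46), and not in DP and SP (-0.19, -0.30 and -0.10). Libraries with neighbouring library numbers deviated together in DP and SP as well (0.50, 0.51 and 0.52 for DP replicate 3 with SP replicate 1, DP 1 with SP 2 and DP 2 with SP 3).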

Additional observations from a re-analysis of the deposited data

How the results depend on the processing

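The call counts of the 7 tested transporter genes moved between 0 and 3 with the settings. In IMDP over IMSP cells 1 gene passed as reported, 0 with no filter beyond a value above 0 in 1 library, 3 with the library-number block and 2 with only the compared groups in the fit, and 0 to 1 when 1 library was left out. Scaled to the same median or by the reads on listed features, 1 gene passed there as well, but it was Abcc1 and not Abcc4, and by the reads on listed features the same held averaged over treatments. In G0M+ against G0M- cells averaged over treatments the count was 1 as reported, 0 with no filter, 0 with each library scaled to the same median, 3 with the library-number block, and 0 to 2 when 1 library was left out. The 3 genes of that block were Abcc4, Abcc5 and Slc22a4. Of all 10072 genes, 2581 passed in IMDP over IMSP cells as reported, 4446 with the library-number block, 1559 scaled to the same median, 1562 by the reads on listed features and 1553 with only the compared groups, and averaged over treatments 2648 passed as reported and 4721 with that block. In imatinib against vehicle the count was 0 as reported, and 1 (Abcb1b) with a pseudocount of 1, with each library scaled to the same median, with limma-voom on recovered reads and with the reads on listed features as denominator, and 0 to 1 when 1 library was left out. The counts of DP over SP, IMDP against DP, IMSP against SP and the interaction were 0 under every setting that gave a value. With the replicate block the counts were 1 in IMDP over IMSP cells and 1 averaged over treatments, and the block changed no call of these 7 genes. For Abcb1a the exact permutation p between populations ran from 0.0433 to 0.424 when 1 library was left out. The library-number block could not be fitted for the treatment comparisons, since each pair of libraries had 1 treatment. Numbered copies could not be kept apart, since these genes have none. The log2 fold changes with an unadjusted p under 0.05 kept their sign over all settings. For Abcb1b with imatinib the range was 0.67 to 0.97 averaged over populations. It was 0.56 to 0.96 in IMDP against DP and 0.67 to 1.135 in IMSP against SP cells. For IMDP over IMSP cells it was -0.996 to -0.46 for Abcc4 and -1.58 to -0.68 for Slc22a4. Averaged over treatments it was -0.64 to -0.35 for Abcc4 and -1.43 to -0.53 for Slc22a4. The cause of the changed calls was not tested. Levels under 1 RPKM rest on few reads, which limits Abcb1a and Slc22a4 most.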
